A study of Mus musculus with 15 samples.

Results

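Single-nuclei RNA sequencing (snRNA-seq) of dorsal hippocampal formation (dHF) micropunches captured, beside hippocampal cells, a small population of habenula-type neurons. Its members were the barcodes of the 15 libraries with at least 1000 genes detected, at least 3 unique molecular identifiers (UMIs, counted RNA molecules) of Nwd2, at least 1 UMI of Pou4f1 and at most 1 UMI of Gad1 and Gad2 together. The rule found 845 nuclei among 124527 barcodes with at least 1000 genes (0.679%), in 13 of 15 mice. Each library came from a wild-type C57BL6/J female and from punches of that mouse alone. The 6 NP mice were nulliparous (never bred), the 4 control RE mice had gone through the full reproductive experience of breeding, pregnancy, birth, lactation and care of pups, and the 5 stress RE mice had also been separated daily from their pups on limited nesting late in the postpartum period. Age at collection was not given in the labels of these libraries. The region is labelled dHpc, and per the study's methods the 4 punches of a mouse also took in some cortex, thalamus and ventral hippocampus.

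The habenula is a paired nucleus of the epithalamus that lies on the dorsal thalamus, directly beneath the dHF, and relays forebrain input to midbrain monoamine and interpeduncular neurons. Its medial part holds excitatory neurons that release glutamate together with acetylcholine or with the neuropeptide substance P, and it is known for nicotinic receptors built from the subunits of the Chrna3 and Chrnb4 genes. Its lateral part signals aversive or disappointing outcomes to dopamine and serotonin neurons.

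The 15 libraries ranged from 5789 to 12738 barcodes and from 40602582 to 96211264 UMIs. Members had a median of 10662 UMIs (range 1571 to 75065) and 3700 genes, against 6307 UMIs in other barcodes with at least 1000 genes. Of the members, 61 (7.22%) were among the barcodes marked as likely doublets, and 7.47% of all barcodes were. The barcodes with the highest Scrublet scores were marked, at a rate set in advance of 0.8% per 1000 barcodes of a library. The 7.47% is thus not a measured doublet rate. No barcode sequence was a member in more than 1 library, and 27 members carried a barcode sequence also found in another library. The values that chose the members had a median of 55 UMIs for Nwd2 and 1 UMI for Pou4f1. At the edge of the rule, 24 members had exactly 3 UMIs of Nwd2 and 30 barcodes missed it with 2 UMIs. The Pou4f1 threshold lay where counts were sparse: 448 members had a single Pou4f1 UMI, and 8737 barcodes met every other condition with none, of which 1844 had at least 10 UMIs of Nwd2. The rule thus left out barcodes with high Nwd2 and no Pou4f1 UMI. Those with at least 10 UMIs of Nwd2 numbered 118 in control RE mouse 72 and 117 in stress RE mouse 90, both without members. In NP mice 37 and 63, with 225 and 207 members, they numbered 219 and 253. Whether they were habenula-type nuclei was not tested.

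The genes with the largest ratio of members to other barcodes were led by the markers given for habenula-type neurons and by neighbours of Pou4f1. These ratios use the nuclei the rule chose, so they are a description with no test, and levels are given as CPM, the UMIs of a gene scaled to the depth of the counts summed over nuclei. Beside Pou4f1 (a POU homeodomain transcription factor) and Nwd2, which the rule used, the leading genes were D130079A08Rik at 896 CPM in members and 5.82 CPM in other barcodes (154-fold), D130009I18Rik at 621 and 5.41 CPM (115-fold) and Ano1, which encodes a calcium-activated chloride channel, at 504 and 7.54 CPM (66.9-fold). Gm40999, Gpr139, Scube1, Clec18a, Casz1, Cftr, Minar1, Tex15, Syt6 and Ror2 followed with 32.5-fold to 48.7-fold. Gpr139 is an orphan receptor, and Cftr, like Ano1, encodes a chloride channel.

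Both leading long non-coding RNAs are neighbours of Pou4f1 on mouse chromosome 14 (GRCm38, GENCODE vM21). Pou4f1 lies on the minus strand at chr14:104461676-104467999. D130079A08Rik, a lincRNA on the same strand at chr14:104288431-104459336, starts 2.34 kb past the 3' end of Pou4f1. D130009I18Rik, a lincRNA on the plus strand at chr14:104612791-104966783, starts 145 kb away on the other side of Pou4f1. As the rule required a Pou4f1 UMI, the levels of both neighbours are not independent of it. D130079A08Rik ranged from 571 to 1145 CPM over the 11 mice with at least 10 members, and was above its level in other barcodes in 11 of 11.

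Of 9346 genes with at least 10 CPM in members, 59 (0.631%) were at least 4-fold higher in members than in other barcodes of the same library in each of these 11 mice. The list of medial habenula markers had 4 of 12 genes among them, and the markers given with the rule had 2 of 3, leaving Nwd2 and Pou4f1 aside. The median log2 ratio was 4.21 over the 12 medial habenula markers and 5.89 over the 3 given markers, beside 0.09 over all 9346 genes. Of the other habenular lists, none of 5 lateral habenula markers, 3 cholinergic genes, 5 nicotinic subunit genes or 1 substance P gene reached this limit in every mouse, and the median log2 ratio of the lateral habenula markers was −0.24. The medial habenula markers at this limit were Gng8, Gpr151, Nhlh2 and Nr4a2, and of the given markers D130079A08Rik and Kctd8. Kctd8, an auxiliary subunit of GABA-B receptors, had 2607 CPM in members, 28.4-fold the level of other barcodes, and 62.2 CPM in thalamic-type nuclei, which were defined by Tcf7l2 and Slc17a6 without Nwd2 and Pou4f1.

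Summed over all members, most of which came from NP mice, genes for acetylcholine and tachykinin peptides stood above other barcodes, though not in every mouse. Chat was at 0 in 4 of 11 mice, and Tac1 and Tac2 were at 0 in stress RE mouse 75. Tac2, which encodes neurokinin B, was 120-fold above its 0.807 CPM in other barcodes, Chat, the enzyme that makes acetylcholine, had 74.1 and 0.919 CPM, and Slc5a7, the choline transporter, had 60.1 and 1.18 CPM. Tac1, the precursor of substance P, had 31.2 and 3.63 CPM. The vesicular glutamate transporters Slc17a6 and Slc17a7 had 134 and 113 CPM in members. Slc17a6 was higher in members than in other barcodes in 11 of 11 mice and lower than in thalamic-type nuclei, which were picked on it, in 11 of 11, whereas Slc17a7 was above thalamic-type nuclei in 10 of 11 mice. A UMI of Chat was found in 27.7% of members and 0.124% of oligodendrocyte barcodes, which should lack it and served as background for free RNA. Median depth was 3189.5 UMIs in oligodendrocyte barcodes, and after each nucleus was reduced at random to 3000 UMIs Chat was found in 14.9% of members and 0.0937% of oligodendrocyte barcodes. Thinning left out 15 of 845 members and 6772 of 15308 oligodendrocyte barcodes. For Tac2 the thinned shares were 21.6% of members and 0.211% of oligodendrocyte barcodes.

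Of the 16 nicotinic receptor subunit genes, 5 had at least 10 CPM in members and 3 were at 0. Chrna3, Chrnb4 and Chrnb3 had 60.6, 39.3 and 52.2 CPM in members against 0.969, 0.366 and 1.18 CPM in other barcodes, ratios of 62.5, 107 and 44.2. Chrna3 (chr9:55010111-55026562, minus strand) and Chrnb4 (chr9:55028154-55048779, minus strand) stand side by side on chromosome 9, and the third gene of that cluster, Chrna5 (chr9:54980880-55007779, plus strand), was at 1.27 CPM in members and 2.00 CPM in other barcodes. Chrna7, the subunit of homomeric receptors, was at 43.1 CPM in members and 98.7 CPM in other barcodes. Among opioid receptor genes, Oprm1 (the mu receptor) had 282 CPM in members and 36.4 CPM in other barcodes and was higher in members in 11 of 11 mice, whereas Oprd1 and Oprk1 had 1.37 and 0.489 CPM.

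Genes of dopamine and hormone signalling were at mixed levels in these nuclei. Drd1 and Drd2 had 0.977 and 3.13 CPM in members against 4.94 and 10.2 CPM in other barcodes, and the dopamine transporter gene Slc6a3 had no UMI in members. Th, which encodes tyrosine hydroxylase, had 2.54 and 0.0909 CPM. Maoa, which encodes a monoamine-degrading enzyme, had 69.2 and 14.8 CPM and was higher in members in 11 of 11 mice. Of the receptors, Oxtr had no UMI in members, Prlr had 3.91 CPM and Esr1 had 0.977 CPM, and the glucocorticoid receptor gene Nr3c1 was lower in members than in other barcodes in 11 of 11 mice, at 41.0 and 145 CPM. Of the lists of other cell classes, the summed level of the oligodendrocyte markers had a median over mice of 288 CPM in members and 1441 CPM in other barcodes, and that of the endothelial and mural markers 11.7 and 18.2 CPM. The thalamic excitatory list had 1900 and 3150 CPM and the hippocampal excitatory list 455 and 743 CPM. Of the oligodendrocyte precursor markers, Lhfpl3 was higher in members, at 1148 against 433 CPM, whereas Pdgfra, Cspg4 and Vcan were lower, at 2.44, 1.56 and 20.7 CPM against 15.9, 8.75 and 44.3 CPM.

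Clustering the 845 members alone on 1000 variable genes gave 10 kinds, numbered by size, whose leading genes are a description because the clustering used them. Kinds 1, 2, 5 and 6 were called medial habenula-like: they had 9 to 11 of 12 markers at 5 CPM or more and at least 2-fold above other barcodes, Tac2 and Chrnb4 at least 2-fold above other barcodes at any level, fewer than 3 lateral habenula markers above other members, and no lead of another cell class. The number of markers alone did not set them apart, since kinds 4, 7, 8, 9 and 10 had 10 or 11 by the same limits. Nor did the Chrnb4 limit, which kinds 3, 4 and 7 also met, at 3.45, 4.48 and 4.74 CPM. Kind 1 (178 nuclei) was cholinergic: Chat was at 269 CPM against 25.4 CPM in other members and Slc5a7 at 205 against 24.1 CPM, and its other leading genes were Igfbp7, Nfam1, Lamc3, Emid1, Clec18a and Tspan18, the last at 1000.5 CPM. Chrna3, Chrnb3 and Chrnb4 were at 190, 148 and 105 CPM in it. Kind 2 (167 nuclei) carried Tac1 at 124 CPM against 13.2 CPM in other members and had no Chat UMI, with Tac2 at 287 CPM, Adcyap1 (the peptide PACAP) at 122 CPM and Pde11a at 1089 CPM. Kind 5 (84 nuclei) led with Syt15, Cdh3 and Prkch, held Chat at 104 CPM and Chrna3 at 132 CPM, and differed from kind 1 in Oprm1, at 708 against 12.7 CPM. Kind 6 (67 nuclei) led with Mybpc1, Rab3b and Cngb3, which encodes a subunit of a cyclic nucleotide-gated channel and was at 455 CPM against 14.8 CPM in other members. Chrna3 and Chrnb4 were low in kind 6, at 6.36 and 4.77 CPM, whereas Chrnb3 was at 81.1 CPM.

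Kind 3 (106 nuclei) was lateral habenula-like, with Gap43, Pcdh10 and Htr2c, 3 of the 6 lateral habenula markers, above other members. Vgf, of the same list, was at 4.31 CPM in it, and 7 of 12 medial habenula markers were still above other barcodes. The leading genes of kind 3 included Chrm2, the M2 muscarinic receptor, at 1528 CPM against 52.4 CPM, and Pcdh10 at 327 against 37.3 CPM. Htr2c, the serotonin 2C receptor, was at 3089 CPM in kind 3. In kind 3 Ano1 was at 8.62 CPM, close to the 7.54 CPM of other barcodes, and Tac2 at 0.862 CPM, so the marker Ano1 that was given for the whole population was not one of kind 3. Kind 4 (94 nuclei) led with Ltbp1, Adra1a and Sema3d, had Htr2c at 1819 CPM, and stayed unnamed because 4 astrocyte markers stood at least 3-fold above other members. In a finer clustering, 18 of its nuclei fell into a cluster led by astrocyte genes.

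The other kinds stayed unnamed because genes of other cell classes or doublet scores led their clusters. Kind 7 (63 nuclei) had a median of 8 UMIs of Nwd2, near the threshold of 3, and led with Gulp1, Adamts19, Tmem132c and Tshz2; the thalamic gene Ntng1 was at 1157 CPM in it, and 4 lateral habenula markers were above other members. Kind 8 (52 nuclei) led with Smoc2 and Iqgap2 and 32 of its nuclei (61.5%) were marked as doublets, and kind 9 (28 nuclei) was led by genes of oligodendrocytes, with 14 marked (50.0%). Kind 10 (6 nuclei) was led by microglial genes such as Siglech. Kinds 9 and 10 kept habenula markers, with Ano1 at 444 and 685 CPM and Tac2 at 88.9 and 69.9 CPM. Altogether 168 members lay in clusters led by genes of other cell classes or marked by doublet scores, of which NP mice gave 126, control RE mice 13 and stress RE mice 29, and 677 lay outside them. The limits used to name and set aside clusters were chosen after the clusters were seen.

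**Figure D1:**
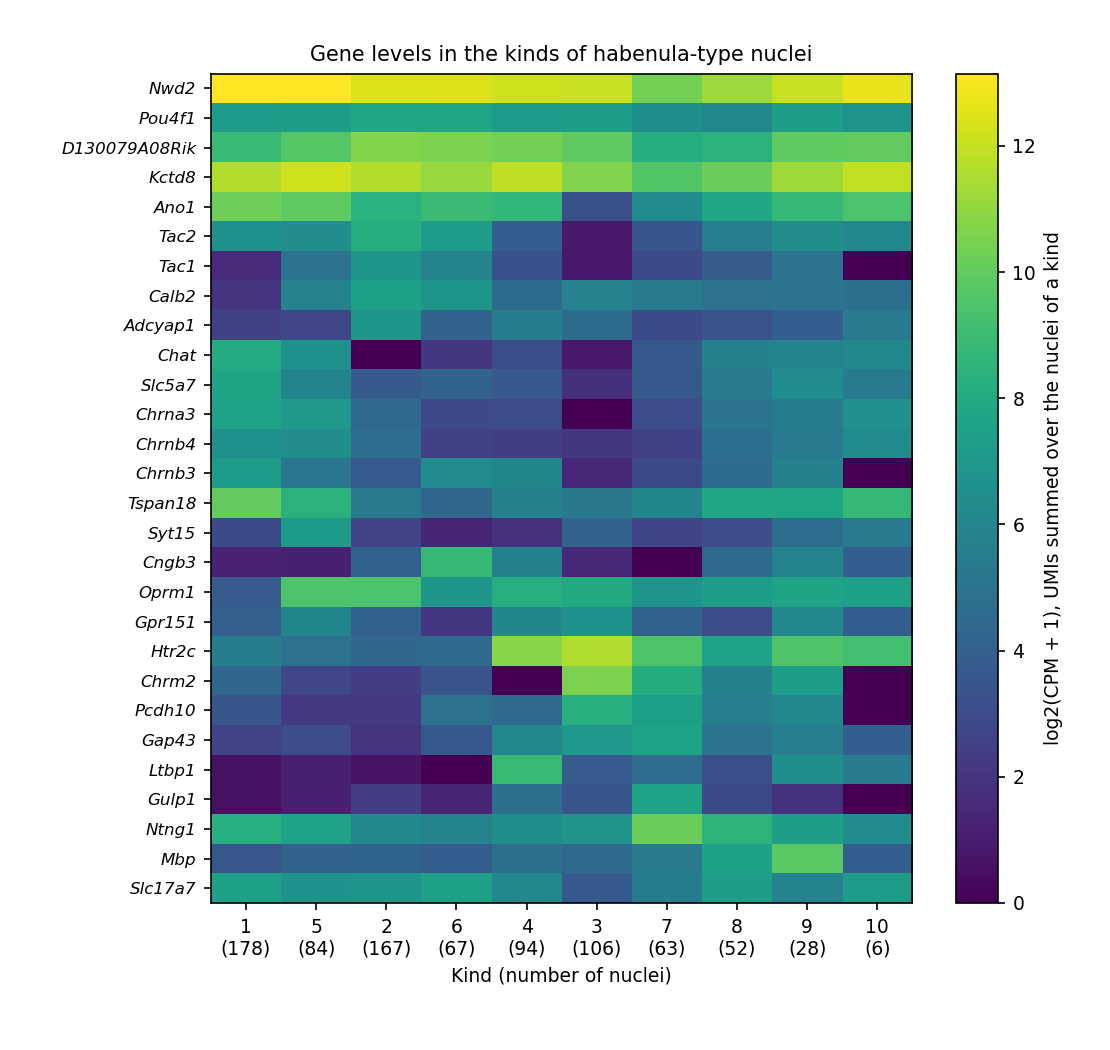
Levels of 28 genes (rows) in the 10 kinds of habenula-type nuclei (columns, with the number of nuclei below), as log2(CPM + 1) of UMIs summed over the nuclei of a kind. Chat and Chrna3 are highest in kinds 1 and 5, Tac1 in kind 2, and Chrm2 and Htr2c in kind 3, where Ano1 is at 8.62 CPM.

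Acetylcholine and substance P genes sat in different nuclei. A UMI of Chat was found in 234 members and a UMI of Tac1 in 170, and 4 members had both. In nuclei thinned to 3000 UMIs the numbers were 126, 80 and 0 of 830. Slc5a7 was detected in 77.8% of members with Chat and 8.67% of members without, and Chrna3 in 76.1% and 14.4%. Tac2 was detected in 80.6% of members with Tac1 and 33.0% of the others, and Htr2c in 16.1% of members with Tac2 and 63.1% of the others.

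The number of habenula-type nuclei differed widely between mice, which bears on the question whether reproductive experience or postpartum stress went with a change in this population. In NP mice the share of barcodes was 0.696% in mouse 27, 1.64% in mouse 31, 0.163% in mouse 35, 2.94% in mouse 37, 2.48% in mouse 63 and 1.15% in mouse 73. In control RE mice it was 0.217% in mouse 66, 0 in mouse 72, 0.0279% in mouse 87 and 0.178% in mouse 88. In stress RE mice it was 0.813% in mouse 43, 0.902% in mouse 70, 0.154% in mouse 75, 0.101% in mouse 77 and 0 in mouse 90. A count of 0 allowed up to 0.0325% in mouse 72 and 0.0330% in mouse 90 by a floor of 3 counts, and up to 0.0416% and 0.0423% by the 95% Wilson interval. Of 6 NP mice, 5 lay above every control RE mouse and 4 above every stress RE mouse, and NP mouse 35 lay within the range of both, so the groups overlapped. NP mice held 667 of the members, control RE mice 42 and stress RE mice 136.

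**Figure D2:**
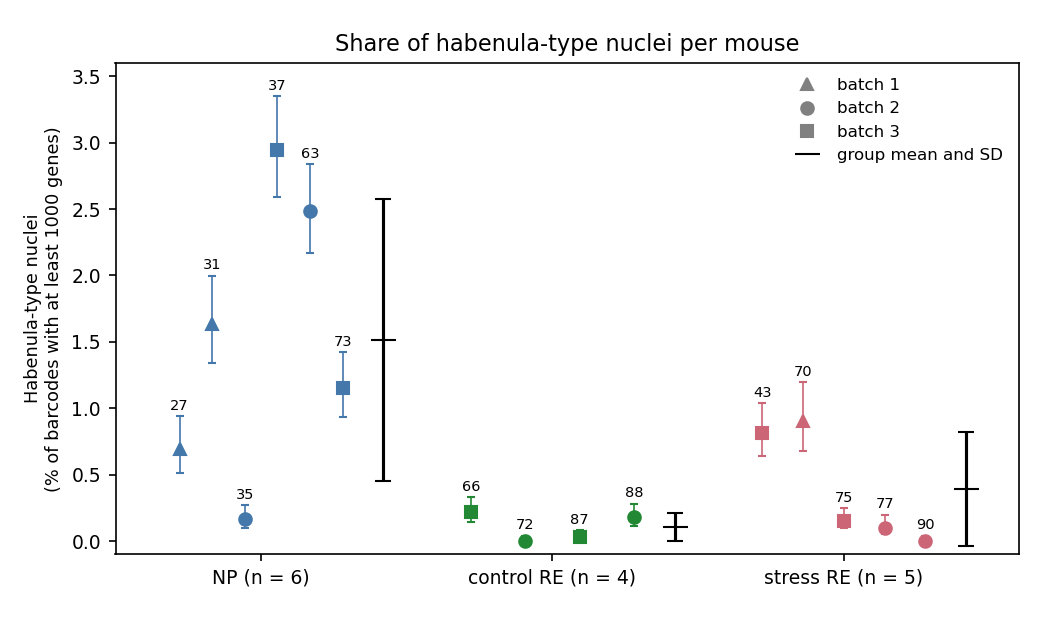
Habenula-type nuclei as percent of barcodes with at least 1000 genes in each mouse (numbered points with 95% Wilson intervals, which cover counting error only), by group, with symbols for the 3 batches and the group mean and SD in black. NP mice range from 0.163% to 2.94%, control RE mice from 0 to 0.217% and stress RE mice from 0 to 0.902%.

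NP mice had a mean share of 1.51% ± 1.06 (SD, n = 6), control RE mice one of 0.106% ± 0.108 (SD, n = 4) and stress RE mice one of 0.394% ± 0.428 (SD, n = 5), and no difference passed the test after adjustment. Control RE mice differed from NP mice by −1.41 points of percent (exact permutation test over mice, two-sided, p = 0.0286, Benjamini-Hochberg adjusted over 3 comparisons p = 0.0779, smallest p possible 0.00952). For stress RE against NP mice the difference was −1.12 points (exact permutation p = 0.0519, adjusted p = 0.0779), and for stress RE against control RE mice it was 0.288 points (exact permutation p = 0.349, adjusted p = 0.349). Without NP mouse 35 both differences from NP passed, with an adjusted p of 0.0357 each by the exact permutation test. With other mice left out, the adjusted p reached 0.143 for control RE minus NP and 0.157 for stress RE minus NP (exact permutation test). Control RE minus NP also passed with at least 2 UMIs of Pou4f1 or with nuclei thinned to 3000 UMIs, at an adjusted p of 0.0286 each by the exact permutation test. The first of these settings changes a limit of the rule itself. Taken batch by batch, control RE mice differed from NP mice by −1.23 (batch 2) and −1.93 points (batch 3). Stress RE mice differed from NP mice by −0.265, −1.27 and −1.56 points in batches 1, 2 and 3, and from control RE mice by −0.0385 (batch 2) and 0.361 points (batch 3). With mice permuted only within batches, a test chosen after these values were seen, the mean within-batch difference was −1.58 points for control RE against NP (exact permutation p = 0.111, smallest possible 0.0556), −1.03 points for stress RE against NP (exact permutation p = 0.0741, smallest possible 0.0185) and 0.161 points for stress RE against control RE (exact permutation p = 0.611). By the labels batch 1 held no control RE mouse, whereas the study's methods place every group in every batch, so the labelled batches may not be the processing batches.

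Whether these shares follow the animals or the placement of the punches was not tested, and fewer neurons and a smaller sampled part of the habenula cannot be told apart in these data. Thalamic-type nuclei made up 6.20% ± 1.68 of barcodes in the 6 NP mice, 5.54% ± 1.50 in the 4 control RE mice and 5.81% ± 2.52 in the 5 stress RE mice (mean ± SD), with overlapping ranges of 4.35% to 8.97%, 4.07% to 7.06% and 2.50% to 8.83%. Over whole libraries, with no nuclei chosen, Tac2 was at 0.167 to 10.2 CPM in NP, 0.0751 to 0.350 CPM in control RE and 0.0961 to 2.02 CPM in stress RE mice. Gng8 was at 1.06 to 3.80 CPM in NP and 0.468 to 0.768 CPM in control RE libraries. Chat was at 0.448 to 8.38 and 0.108 to 0.263 CPM, and Tac1 at 1.66 to 6.19 and 0.673 to 1.62 CPM. The share of all genes that separated these libraries was not counted, so the gaps, narrow for Tac1, are a description only. Chrnb4 (0.137 to 4.32 and 0.0451 to 0.163 CPM) overlapped between these groups, as Tac2 did, and Chrnb3 in control RE libraries (0.481 to 1.45 CPM) lay within its NP range (0.395 to 5.70 CPM). Stress RE libraries overlapped NP libraries in all 6 genes. Such levels come from all cells of a punch: Tac1 was highest in stress RE mouse 75, at 21.4 CPM, whose members had no Tac1 UMI.

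The kinds were spread unevenly over mice. Medial habenula-like nuclei numbered 427 in 6 of 6 NP mice, 7 in 1 of 4 control RE mice and 62 in 2 of 5 stress RE mice. In NP mice they numbered 17, 68, 2, 178, 131 and 31 in mice 27, 31, 35, 37, 63 and 73. All 7 of control RE came from mouse 88, and those of stress RE came from mice 43 (32) and 70 (30). Lateral habenula-like nuclei numbered 65 in 6 of 6 NP mice, 14 in 2 of 4 control RE mice and 27 in 3 of 5 stress RE mice, and made up 11 of 21 members in control RE mouse 66, 13 of 17 in stress RE mouse 75 and 7 of 14 in NP mouse 35. As percent of barcodes, lateral habenula-like nuclei were at 0.146 ± 0.0760 in the 6 NP mice, 0.0358 ± 0.0536 in the 4 control RE mice and 0.0630 ± 0.0649 in the 5 stress RE mice (mean ± SD). Because the kinds were defined on these nuclei, their numbers were not tested between groups.

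**Figure D3:**
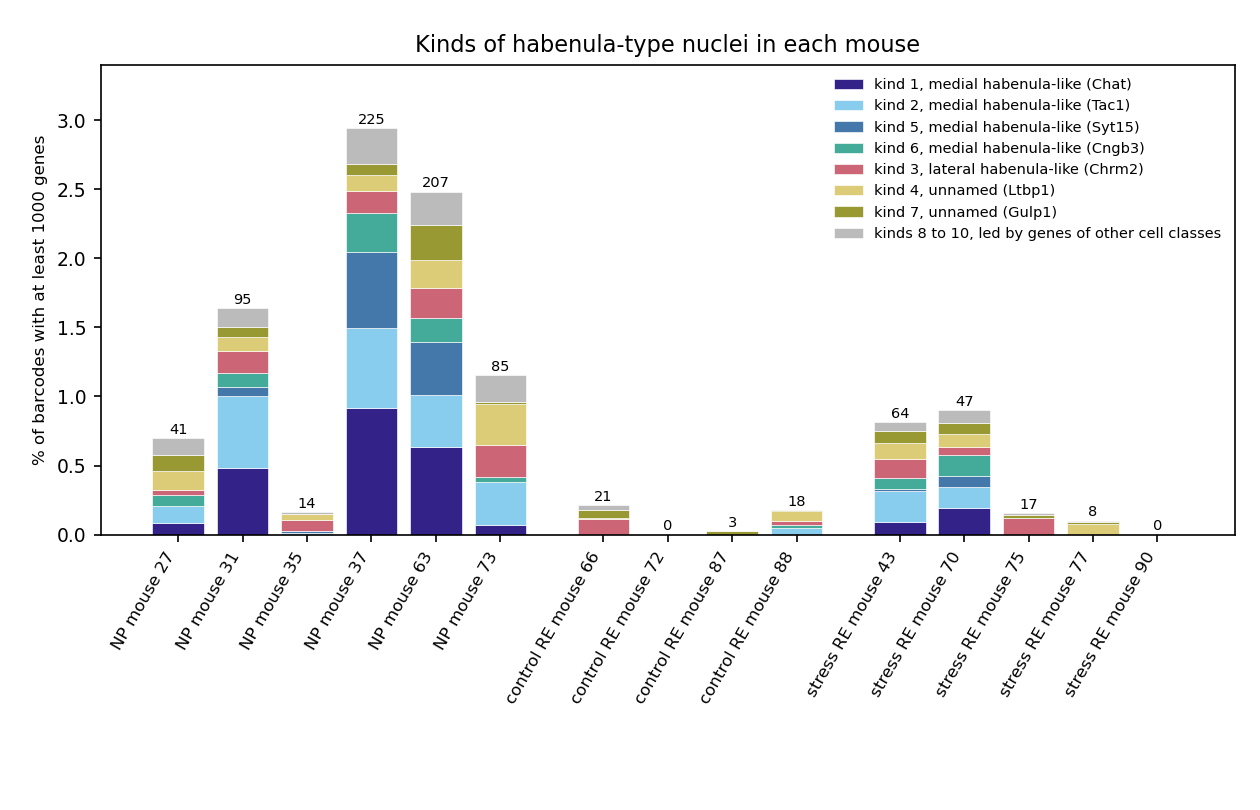
Kinds of habenula-type nuclei in each mouse, stacked as percent of barcodes with at least 1000 genes (y axis), with the number of members above each bar and a leading gene of each kind in the legend. Medial habenula-like kinds (blue and green) make up most of the bars of NP mice 31, 37 and 63 and stress RE mouse 70, and none of control RE mouse 66 or stress RE mouse 75.

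Gene expression in the members was compared between groups in counts summed per mouse, over the 11 mice with at least 10 members (6 NP, 2 control RE and 3 stress RE), which held 116544 to 2632962 UMIs. No gene of 9659 tested passed an adjusted p of 0.05 (edgeR quasi-likelihood test) in control RE minus NP, stress RE minus control RE or stress RE minus NP, so 0% was called in each. An unadjusted p under 0.05 was found for 591 genes (6.12%), 380 genes (3.93%) and 262 genes (2.71%), and the smallest adjusted p was 0.466, 1.000 and 1.000 by edgeR. DESeq2 called 1 gene in the first comparison, Cd47, and none in the others, with 410, 227 and 194 genes at an unadjusted p under 0.05. In counts simulated at these depths for control RE minus NP on 9659 genes, edgeR found 54% of genes changed 4-fold and 5% of genes changed 2-fold. For stress RE minus control RE it found 34% and 0%, and for stress RE minus NP 80% and 10%.

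Cd47, an immunoglobulin-family receptor on the cell surface, had the smallest p in control RE minus NP. It was at 166 and 180 CPM in the control RE mice and from 36.8 to 81.7 CPM in the 6 NP mice, a log2 difference of 1.51 (SE 0.27, adjusted p = 0.466 by edgeR). The groups did not overlap for it, nor for 1309 of the 9659 genes tested. The other genes of this comparison with the smallest p were Grip2 and Diaph3, with log2 differences of −1.67 and −2.58, and Runx2, Tmem132d, Gprin2, Rpl32, Fabp5, 9330111N05Rik and Rnf227, with 1.75 to 3.07. Of these, 9330111N05Rik, Tmem132d and Runx2 rested on control RE mouse 66, which had 129, 239 and 176 CPM of them, against 0, 34.3 and 42.9 CPM in mouse 88, within the range of NP mice. The log2 difference of Tmem132d changed sign with an equal number of members per mouse. Bmpr1b, a BMP receptor, was among the genes with the smallest p in stress RE minus control RE. It had 1 UMI in 1647066 UMIs of stress RE members and 32 in 417757 UMIs of control RE members. The pooled ratio was 126 (95% interval 21.1 to 5137, which covers counting error only and not the spread between mice). Bmpr1b was at 96.3 and 25.7 CPM in control RE mice 66 and 88, the latter equal to a floor of 3 counts in that mouse. In NP mice it ranged from 2.66 to 61.3 CPM. Prr5 had no UMI in control RE members and 26 in stress RE members, at least 2.20-fold higher against a floor of 3 counts over the group. Without control RE mouse 66 that floor was 25.7 CPM, above the 15.8 CPM of Prr5 in stress RE members, and gave no bound. Neither passed after adjustment (adjusted p = 1.000 for each by edgeR). In stress RE minus NP the smallest p belonged to Mpc1, a subunit of the mitochondrial pyruvate carrier, at 107 to 122 CPM in stress RE and 65.0 to 86.4 CPM in NP mice, a log2 difference of 0.66 (SE 0.16, adjusted p = 1.000 by edgeR).

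Chat and Chrna3 were at 0 in both control RE mice, beside a difference in which nuclei these mice gave. Of the other cholinergic genes, Slc5a7 was at 0 and 8.58 CPM in control RE mice 66 and 88 and at 0 to 106 CPM in NP mice. Slc18a3, of the same list, was at 0 in both control RE mice and at 0 to 6.90 CPM in NP mice. Ache, which encodes acetylcholinesterase, was at 33.2 and 68.6 CPM in control RE mice 66 and 88 and at 22.1 to 60.1 CPM in NP mice. Chat was at 16.9, 86.2, 0, 123, 103 and 16.2 CPM in NP mice 27, 31, 35, 37, 63 and 73, at 0 in both control RE mice and at 35.1, 76.7 and 0 CPM in stress RE mice 43, 70 and 75. NP mouse 35 and stress RE mouse 75 were thus at 0 as well, and the groups overlapped. Chrna3 was at 13.6 to 95.7 CPM in NP mice, at 0 in both control RE mice, and at 32.8, 82.8 and 0 CPM in stress RE mice. The measured values of control RE and NP mice thus did not overlap for this gene. The 0 of control RE mouse 88 allowed up to 25.7 CPM by a floor of 3 counts, above NP mice 35 and 73 (13.6 and 17.7 CPM). Pooled over the group, control RE members had no Chrna3 UMI in 417757 UMIs and NP members had 538 in 8000130. Against the floor of 3 counts (7.18 CPM), the pooled level in NP was at least 9.36-fold higher. For Chat the pooled bound was 11.8-fold. These bounds cover counting error only and do not hold for each mouse, as NP mouse 35 was at 13.6 CPM of Chrna3 and 0 of Chat. Without control RE mouse 66 the floor was 25.7 CPM and the bounds were 2.61-fold for Chrna3 and 3.29-fold for Chat. The adjusted p in control RE minus NP was 0.776 for Chrna3 and 0.794 for Chat by edgeR. Control RE mice 66 and 88 gave no nuclei of kinds 1 and 5, in which both genes were highest, and so did stress RE mouse 75. Whether the levels changed within a kind could not be tested for control RE, which had 7 medial habenula-like nuclei in all.

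**Figure D4:**
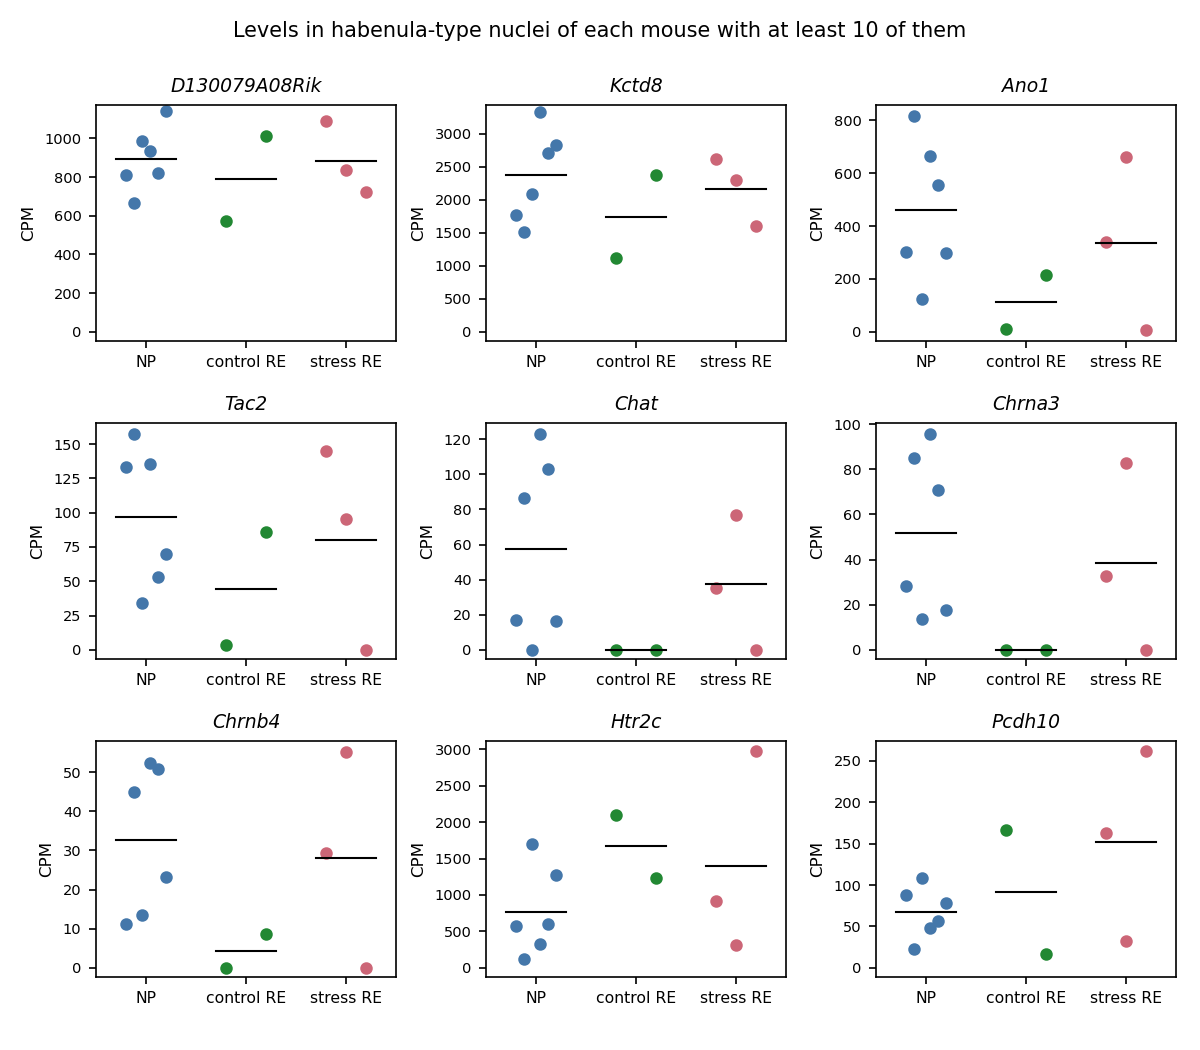
Levels (CPM, y axes from 0) of 9 genes in habenula-type nuclei of each mouse with at least 10 of them (points) by group, with the group mean as a line (6 NP, 2 control RE and 3 stress RE mice). Chat and Chrna3 are at 0 in both control RE mice and in stress RE mouse 75, whereas D130079A08Rik lies between 571 and 1145 CPM in all 11 mice.

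By list, no gene passed in any direction in any of the 3 comparisons. In control RE minus NP the 12 medial habenula markers had a median log2 difference of −0.60 beside −0.01 for all genes tested, with 8 lower and 4 higher, and the 6 lateral habenula markers had 0.85, with 6 of 6 higher. The unadjusted p was under 0.05 for 5 of 12 medial habenula markers, beside 6.12% of all genes tested in that comparison, and for none of the lateral list. Of the 5, Chrna3, Chrnb4 and Lrrc55 were lower and Slc17a6 and Kctd12 higher. In stress RE minus NP the medians were −0.05 and 0.55 beside −0.02 for all genes, with 8 of 12 lower and 6 of 6 higher. In stress RE minus control RE they were 0.87 and −0.09 beside 0.01. Control RE and NP samples are shared between these comparisons, so the 3 medians are not independent of each other. The dopamine list had 5 genes tested with median log2 differences of 0.20, 0.30 and 0.08 in the 3 comparisons, and the hormone and stress receptor list had 9 tested with 0.51, −0.44 and 0.12.

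Restricted to medial habenula-like nuclei, a setting added after the data were seen, stress RE minus NP could be compared over 5 NP and 2 stress RE mice. No gene of 7026 passed (edgeR), 195 had an unadjusted p under 0.05, and no control RE mouse had 10 such nuclei.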

How the data were processed

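Nuclei from 15 mice were profiled with the 10x 3' v3.1 kit. The deposited files hold raw UMI counts per gene and barcode, which the authors made with Cell Ranger (7.1.0 per the processing notes, 7.0.0 per the file headers) on the mm10 (GRCm38) reference. The study's removal of ambient RNA and doublets is not in these counts. Groups and batches came from the labels, and the mouse was the replicate, so p-values measure the spread between mice. Depth was 40602582 to 96211264 UMIs per library, and intervals cover counting error only.

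Members and gene lists were chosen with earlier results of these data known. Differences in share were put to exact permutation tests over mice (two-sided, scipy 1.17.1), adjusted by Benjamini-Hochberg over 3 comparisons. Counts of members were summed per mouse (at least 10 members) and tested with edgeR 4.0.16 (filterByExpr, TMM, quasi-likelihood, adjusted p under 0.05), which was tested on simulated data, with DESeq2 1.42.0 as an alternative. Members were clustered with scanpy 1.11.5 (Leiden, 20 components, 15 neighbours, resolution 0.5), and doublets were scored with Scrublet in scanpy. Named genes were those of the lists, the 15 with the largest ratio to other barcodes at 100 CPM or more, the 10 with the smallest p per comparison where fewer than 10 passed, and 8 leading genes per kind at 50 CPM or more.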

Additional observations from a re-analysis of the deposited data

Results flagged for a closer look

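In 3 of the 38 sets of values examined, 1 mouse stood apart from the others of its group by Dixon's test at 95%, which chance gives in about 1 of 20 groups. Control RE mouse 88 held medial habenula-like nuclei at 0.0694% of its barcodes, and the other 3 control RE mice held none, so that any value above 0 would have stood apart. NP mouse 27 had Calb2, which encodes the calcium-binding protein calretinin, at 118 CPM in its habenula-type nuclei, above the other 5 NP mice. NP mouse 35, whose 14 members included 7 lateral habenula-like nuclei, had Gap43, a lateral habenula marker of the list, at 136 CPM, also above the others.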

How the results depend on the processing

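Over all settings of the shares, the counts of genes called and the number of kinds, 125 results stayed the same as the main one. A further 7 became stronger (a share that passed, or more genes called), 1 moved and 1 changed sign. The difference in share between control RE and NP passed with at least 2 UMIs of Pou4f1 (−0.683 points, adjusted p = 0.0286, exact permutation test) and with thinned nuclei (−0.800 points, adjusted p = 0.0286, exact permutation test). Leaving out each mouse in turn gave −1.68 to −1.12 points for control RE minus NP, −1.39 to −0.832 for stress RE minus NP and 0.161 to 0.387 for stress RE minus control RE. Without NP mouse 35 the first was −1.68 and the second −1.39 points (adjusted p = 0.0357 each, exact permutation test). With other mice left out, their adjusted p reached 0.143 and 0.157 (exact permutation test). Stress RE minus control RE was −0.0385 points within batch 2. A permutation p counted from absolute differences, used at first and then replaced, gave adjusted p of 0.0877, 0.341 and 0.0877 for control RE minus NP, stress RE minus control RE and stress RE minus NP (exact permutation test). Genes called numbered 1 with DESeq2 and 12 with no filter on low counts in control RE minus NP, and 6 with no filter in stress RE minus control RE, against 0 each. Leaving out each mouse in turn gave 0 again, which says nothing about stability, since the full set gave 0 and leaving out a control RE mouse left 1, assumed to vary like the other groups. Log2 differences changed sign for Tmem132d in control RE minus NP (−0.82 with an equal number of members per mouse), for Lmo7 in stress RE minus NP (−0.72 without clusters led by other cell classes) and, without control RE mouse 66, for 9330111N05Rik (−6.16 in control RE minus NP and 4.63 in stress RE minus control RE, against 3.77 and −5.31 without control RE mouse 88). Kinds numbered 16 at resolution 1. Causes of these changes were not tested. The batch 1, within-batch permutation and cluster settings were chosen after seeing the data. So was the change of the permutation p from absolute differences to the one given for the shares. With at least 20 members per mouse, control RE had 1 mouse and was not compared. With batch as a term edgeR called 0 genes in each comparison, with 485, 339 and 207 at an unadjusted p under 0.05. With mice permuted within batches, the adjusted p of the share was 0.167 for control RE and for stress RE against NP and 0.611 for stress RE against control RE (exact permutation test). No paired analysis was possible because the labels give no replicate numbers shared between groups.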

Other observations

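Genes of inhibitory and pacemaking signalling not described above differed between members and other barcodes, as a description of nuclei chosen by the rule. Gabbr1, a GABA-B receptor subunit, was at 682 CPM in members (4.14-fold the level of other barcodes), Kctd12b, an auxiliary subunit of that receptor, at 8.01 CPM (10.2-fold) and Kctd16 at 0.21-fold. The channel genes Hcn4 and Hcn3 were at 4.31-fold and 2.94-fold.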
